A study of Mus musculus with 6 samples.

Results

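Glycolysis in the liver was followed through 9 genes, namely *Gckr*, *Gpi1*, *Pfkl*, *Pfkfb1*, *Tpi1*, *Pgk1*, *Pgam1*, *Eno1* and *Pklr*, which were taken by name from the 56691 genes of a liver RNA-seq table. They encode 7 enzymes of the pathway and 2 of its regulators. The rule that chose them used no measured value, but it was written with earlier results of these data known. *Gckr* encodes the regulatory protein of glucokinase, so the set holds a regulator of the first step but no gene of a hexokinase. The livers came from female mice fed a high-fructose diet (HFrD) during pregnancy. The KPF group (replicates 1 to 3) carried h*Chrebp* KO, in which Cre under the albumin promoter (Alb-Cre) deletes a floxed exon of *Chrebp* in hepatocytes. The WPF group (replicates 2 to 4) is labelled WT and described in the study's methods as *Chrebp* flox/flox without Cre. The floxed allele, the pregnancy and the diet were shared by both groups, no chow-fed dam was among these libraries, and the ages of the dams were not given.

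Glycolysis turns glucose into pyruvate in the cytosol, and in the liver it also supplies carbon for fat synthesis after a sugar-rich meal. Fructose enters it at the level of the triose phosphates, below the control step of phosphofructokinase. ChREBP is a sugar-sensing transcription factor that binds, with its partner MLX, a carbohydrate response element made of a pair of E-box-like sites, and *Pklr*, the gene of liver and red cell pyruvate kinase, is a classical target of it.

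A sequence with the letters of a carbohydrate response element lies directly upstream of *Pklr*, which has an upstream start used in red cell precursors and a downstream start used in liver. The 250 bases before the downstream start (RefSeq, GRCm38.p6, chr3:89136373-89136622, plus strand) are shown because they hold the only exact match among the 9 genes to the motif searched, which is CACGNG, then 5 bases of any kind, then CNCGTG. The first run of capitals is that match, 170 to 154 bases before the start, and the second is TATAAA, 31 to 26 bases before it.
Pklr: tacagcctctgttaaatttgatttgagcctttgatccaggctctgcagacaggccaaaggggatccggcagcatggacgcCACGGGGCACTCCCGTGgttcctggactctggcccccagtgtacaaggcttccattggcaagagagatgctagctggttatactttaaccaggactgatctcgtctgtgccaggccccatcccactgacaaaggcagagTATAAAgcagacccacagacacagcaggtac

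All 9 genes had at least 1 window of this length in the RefSeq table, 15 windows in all. The motif reads the same on both strands, and a CACGTG E-box can form either of its ends. An exact match stood in 13 of 32851 windows of the table (0.0396%), CACGTG in 6.02% and TATAAA in 7.59%. The closest stretches upstream of the first start of *Gckr*, *Gpi1* and *Eno1* are shown beside it. These were the other genes that met the call rule given below for a lower level in KPF. Capitals mark the bases that match the 10 fixed letters of the motif.
Gckr: CAaaaGcaaagaaCGTc
Gpi1: CAaGcGgatctggCacG
Eno1: CAgGcGcagtatcCaTG
Pklr: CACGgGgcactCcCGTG
*Gckr* and *Gpi1* differed from the motif at 4 fixed bases and *Eno1* at 3. Of all windows, 93.4% came within 4 mismatches and 47.1% within 3, and a match as close as theirs is therefore common. None of the windows of the 9 genes held CACGTG. These letters describe 250 bases only and say nothing of elements further away.

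The libraries held between 10694496 and 14496630 counted reads, every KPF library fewer than every WPF library. Hepatocyte RNA was plain in all of them, with albumin at 6.38%, 6.78% and 8.11% of the reads in KPF replicates 1, 2 and 3 and at 13.2%, 9.92% and 10.5% in WPF replicates 2, 3 and 4. The albumin share did not overlap between the groups, and its part in the results below was not tested. *Mlxipl*, the gene of ChREBP, measured 182, 709 and 860 CPM in KPF replicates 1, 2 and 3 against 974, 1277 and 891 CPM in WPF replicates 2, 3 and 4 (CPM, counts scaled to library size after TMM normalization, the unit of every level below unless FPKM is named). Reads were counted over the whole gene, so that transcripts without the deleted exon are included. KPF replicate 2 stood apart by skeletal muscle RNA. The FPKM of 6 muscle markers (*Acta1*, *Ckm*, *Myh4*, *Tnnt3*, *Tnni2* and *Mylpf*) summed to 2794 there and to 4.61 to 7.79 in the other 5 libraries. WPF replicate 4 stood apart from the other WPF dams in several glycolysis genes, as given with each of them. Red cell markers, which matter because red cell precursors also express *Pklr*, varied within both groups, with a summed FPKM of 134 to 662 in KPF and 54.3 to 498 in WPF. Each of the 6 red cell markers had reads in every library.

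Of the 9 genes, 4 were lower in KPF by the call rule used here, and none was higher. The rule asked for an unadjusted p under 0.05 in edgeR's quasi-likelihood test and a change of at least 1.5-fold. *Pklr*, at the last step, was 7.49-fold lower, *Gpi1* 3.04-fold, *Eno1* 1.93-fold and *Gckr* 1.83-fold. The other 5 genes lay within 1.22-fold of WPF. All 4 had an unadjusted p under 0.05, as had 10.8% of the genes tested, and 9.81% of the genes tested met the rule in either direction. By the same rule 3.98% of the 10866 genes tested (mean FPKM of at least 1) were lower in KPF and 5.83% were higher. No gene of the 9 passed an adjusted p of 0.05, and neither did any gene tested (0.0%), although 1176 genes had an unadjusted p under 0.05. DESeq2 on the same counts called 156 genes at an adjusted p under 0.05, and *Pklr* was the one of the 9 genes among them (adjusted p = 0.000257). Scaling by library totals in place of TMM turned the 634 higher and 432 lower genes into 371 and 716, with the same number of the 9 genes called. The median log2 fold change of the 9 genes was -0.29, against 0.02 over all genes tested. In bulk tissue, fewer cells of a type and less RNA per cell cannot be told apart.

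**Figure D1:**
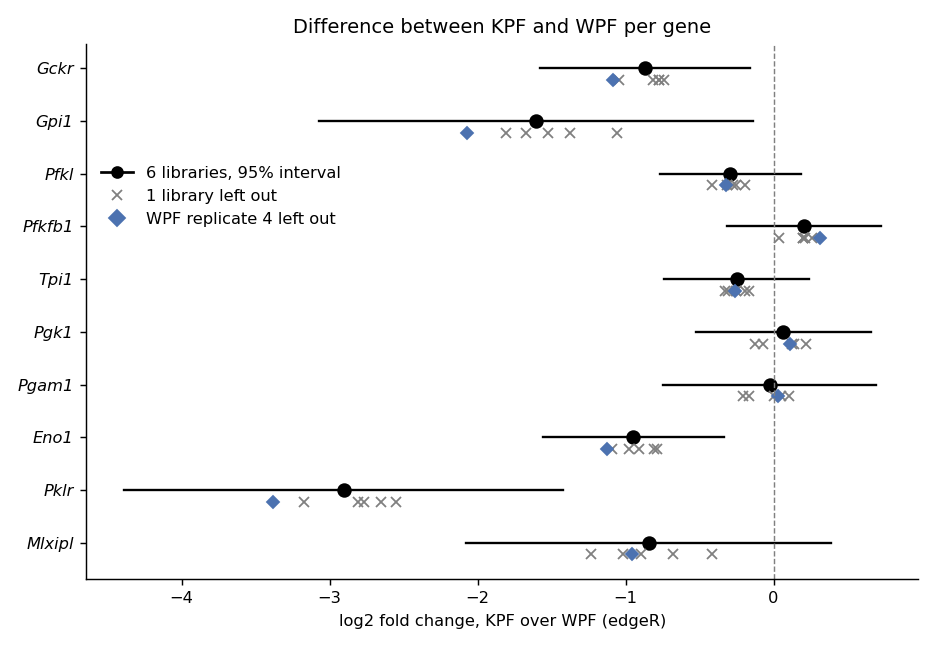
Log2 fold change of KPF over WPF for the 9 glycolysis genes and *Mlxipl* from edgeR (horizontal axis), with black bars for the 95% interval and smaller marks for fits with 1 library left out. The intervals of *Gckr*, *Gpi1*, *Eno1* and *Pklr* lie below 0, and leaving out WPF replicate 4 moved all 4 of them further from 0.

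*Pklr* (ENSMUSG00000041237, GRCm39, as for all gene positions below, chromosome 3 from 89043449 to 89054091, plus strand) encodes the pyruvate kinase of liver and red cells, which makes pyruvate and ATP in the last step of the pathway. The KPF livers (replicates 1, 2 and 3, in this order throughout) held 11.3, 18.6 and 12.1 CPM, and the WPF livers (replicates 2, 3 and 4) held 151, 139 and 24.9 CPM. No KPF liver reached the lowest WPF liver, but that liver, WPF replicate 4, lay far below its own group. The mean was 14.0 ± 3.99 CPM in KPF and 105 ± 69.5 CPM in WPF (SD, n = 3 dams each; exact two-sided permutation test, p = 0.1, the smallest that 3 against 3 can give). The log2 fold change was -2.91 (standard error 0.64, 95% interval -4.39 to -1.42), and the edgeR quasi-likelihood test gave an unadjusted p = 0.00212 and, over all genes, an adjusted p = 0.415. It ranked as number 51 of the genes tested by p.

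The value of *Pklr* in WPF replicate 4 was 17.2% of the mean of the other WPF dams and 1.78 times the KPF mean. Without this library the log2 fold change was -3.38 and the adjusted p from edgeR 0.0337, and over all 16 alternatives to the main fit the adjusted p ran from 0.000257 to 0.820. The red cell markers were high in WPF replicate 4 (498 summed FPKM, against 54.3 and 175 in the other WPF libraries) and highest in KPF replicate 1 (662), and their part in the *Pklr* counts was not tested. *Mlxipl* did not follow the same order. In KPF replicate 1 it was at 182 CPM and in KPF replicate 3 at 860 CPM, while *Pklr* stood at 11.3 and 12.1 CPM in these livers.

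The counts of *Pklr* may also touch those of a neighbour. *Hcn3*, a gene of an ion channel on the opposite strand, overlaps *Pklr* in the deposited coordinates, and 21.8% of the 100-base stretches of the longest coding *Pklr* transcript occur in transcripts of *Hcn3* on either strand (GENCODE M21). The strand setting of the counting was not stated, so it is not known whether reads of *Pklr* and *Hcn3* were told apart there. *Hcn3* stood at 8.59, 17.1 and 6.04 CPM in the KPF livers against 84.6, 113 and 9.97 CPM in the WPF livers.

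The 5 genes whose profile over the 6 libraries was nearest to that of *Pklr* were found by the root mean square distance of centred log2 CPM. They were *Fasn* at a distance of 0.31, *Acly* at 0.38, *Me1* at 0.39, *Hcn3* at 0.42 and *Acss2* at 0.45. *Acly* and *Acss2* make cytosolic acetyl-CoA, *Me1* makes NADPH and *Fasn* joins the acetyl units into fatty acid. *Acly* stood at 37.7, 49.2 and 52.6 CPM in the KPF livers against 465, 656 and 55.3 CPM in the WPF livers, with WPF replicate 4 far below its group. These 5 genes were picked by likeness to *Pklr* over the same 6 libraries, so that this pattern follows from the choice. Of the glycolysis genes, *Gpi1* was the nearest to *Pklr*, at 0.70 with 24 genes closer to it, *Pklr* itself included. The next were *Eno1* at 1.08 and *Gckr* at 1.10, with 187 and 206 genes closer.

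**Figure D2:**
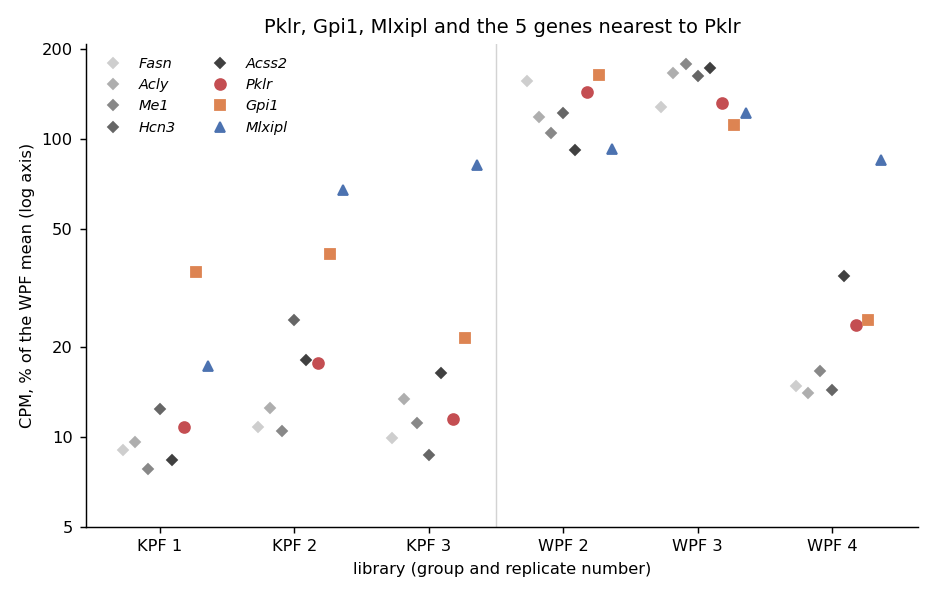
Level of *Pklr*, *Gpi1*, *Mlxipl* and the 5 genes nearest to *Pklr* in each library, as a percent of the WPF mean of the gene (log axis). In WPF replicate 4 *Pklr* stands at 23.7%, *Gpi1* at 24.6% and *Mlxipl* at 85.1%, and in KPF replicate 1 *Mlxipl* stands at 17.4%.

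The exact motif of the *Pklr* promoter was looked up in all genes of the table. It occurred upstream of 12 genes, of which 3 were expressed highly enough to be tested. *Fam124a* stood at 7.92, 8.70 and 5.94 CPM in the KPF livers against 31.7, 23.4 and 6.29 CPM in the WPF livers. Its log2 fold change was -1.44 (unadjusted p = 0.0281, adjusted p = 0.430 from edgeR), and the value of WPF replicate 4 lay among those of KPF, as with *Gpi1*. *A430005L14Rik* ranged from 19.0 to 26.7 CPM in KPF and from 19.4 to 22.9 CPM in WPF, a log2 fold change of 0.18 (standard error 0.20). A match is a description of the letters and was not tested as a binding site.

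*Gpi1* (ENSMUSG00000036427, chromosome 7 from 33900755 to 33929761, minus strand) encodes glucose phosphate isomerase, which turns glucose phosphate into fructose phosphate at the head of the pathway. Its level was 173, 198 and 104 CPM in the KPF livers against 789, 539 and 119 CPM in the WPF livers. WPF replicate 4 was below 2 of the KPF dams, and the groups therefore overlapped (p = 0.3 by an exact permutation test, two-sided). The mean was 159 ± 49.1 CPM in KPF and 483 ± 339 CPM in WPF (SD, n = 3 each). The log2 fold change was -1.61 (standard error 0.63, 95% interval -3.07 to -0.14, unadjusted p = 0.0355, adjusted p = 0.443 from edgeR). WPF replicate 4 stood at 17.9% of the mean of the other WPF dams, nearly the same share as for *Pklr*. Leaving it out gave -2.08 (unadjusted p = 0.00101 from edgeR). The unadjusted p from edgeR was above 0.05 without KPF replicate 1 (0.0725), KPF replicate 3 (0.106), WPF replicate 2 (0.142) or WPF replicate 3 (0.0789), so the call on *Gpi1* could be lost with 1 library. With all libraries kept, limma gave an unadjusted p = 0.0549 on log2(FPKM + 1) and 0.0508 on log2(FPKM + 0.1), also above 0.05. Of the 100-base stretches of *Gpi1*, 7.4% also occur in 2 other genes, most of all in *Gm1840*.

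*Eno1* (ENSMUSG00000063524, chromosome 4 from 150321178 to 150333336, plus strand) encodes the widely expressed enolase, which forms phosphoenolpyruvate, the substrate of pyruvate kinase. Its level was 35.4, 30.7 and 22.7 CPM in the KPF livers against 60.3, 67.8 and 43.1 CPM in the WPF livers, and the groups did not overlap (p = 0.1 by an exact permutation test, two-sided). This gave a log2 fold change of -0.95 (standard error 0.26, 95% interval -1.56 to -0.34, unadjusted p = 0.00745, adjusted p = 0.430 from edgeR). With any 1 library left out, the unadjusted p from edgeR lay between 0.00413 and 0.0318. WPF replicate 4 was again the lowest of its group, at 67.3% of the other WPF dams. The gene has near-identical copies, and 59.0% of its 100-base stretches occur in 4 other genes, so that counting could have moved some of its reads. Of 7 listed copies of the 9 genes, 5 were matched, and these came to a summed 0.05 to 0.40 FPKM in each library. These low values do not show how many reads of *Eno1* were lost or moved.

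*Gckr* (ENSMUSG00000059434, chromosome 5 from 31454787 to 31484658, plus strand) encodes the protein that holds glucokinase inactive in the nucleus of the fasted hepatocyte and releases it when the product of fructokinase is formed from fructose. Its level was 341, 317 and 453 CPM in the KPF livers against 766, 794 and 470 CPM in the WPF livers. The groups did not overlap, but KPF replicate 3 and WPF replicate 4 were separated by little (p = 0.1 by an exact permutation test, two-sided). This gave a log2 fold change of -0.87 (standard error 0.31, 95% interval -1.58 to -0.16, unadjusted p = 0.0229, adjusted p = 0.430 from edgeR). WPF replicate 4 stood at 60.3% of the other WPF dams. No 100-base stretch of *Gckr* was shared with another gene. From edgeR the unadjusted p was above 0.05 without KPF replicate 1 (0.0638), KPF replicate 2 (0.0609), WPF replicate 2 (0.0736) or WPF replicate 3 (0.0855), and stayed under 0.05 without KPF replicate 3 or WPF replicate 4.

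**Figure D3:**
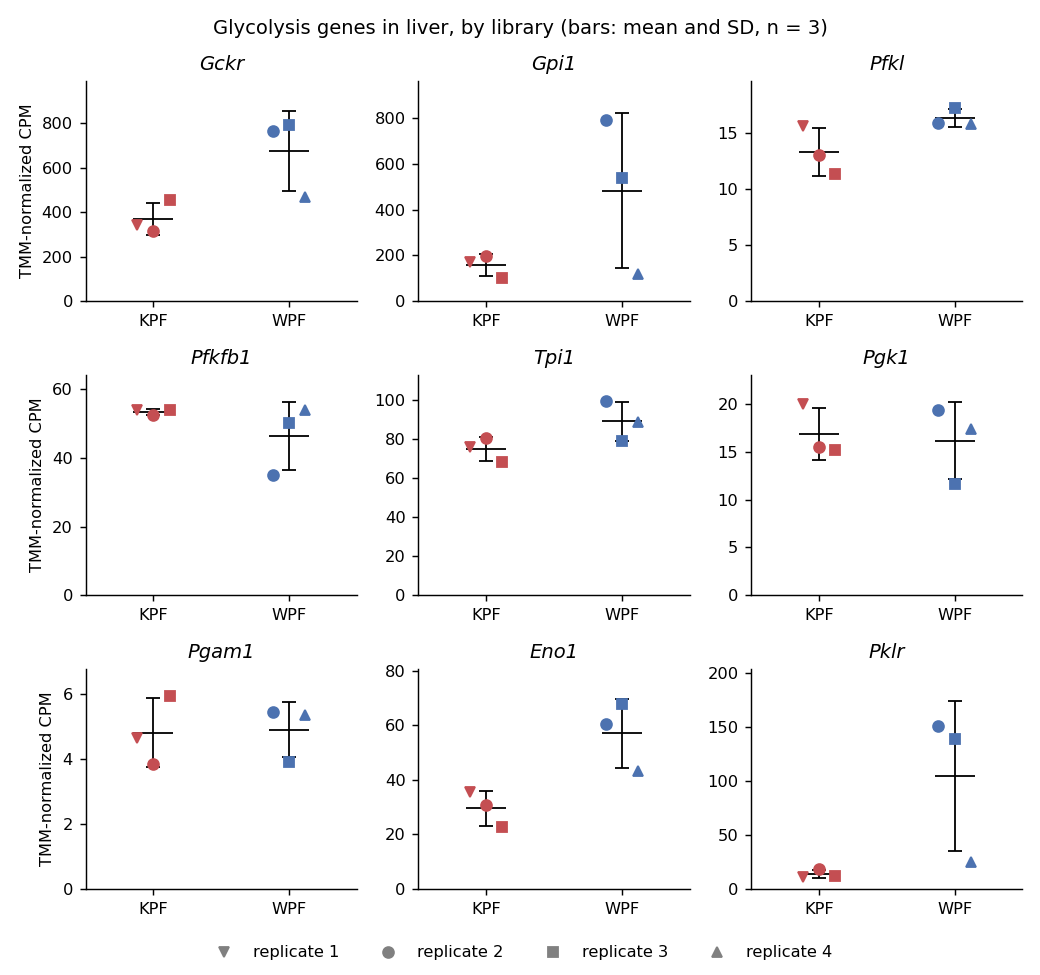
Level of each of the 9 genes in each library (vertical axis, TMM-normalized CPM from 0), with marks for the replicate number and bars for the mean and SD of 3 dams. *Pklr*, *Eno1*, *Gckr* and *Pfkl* do not overlap between the groups, and WPF replicate 4 is the lowest of its group in 5 of the 9 genes.

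The control step and its regulator showed smaller differences. *Pfkl* (chromosome 10 from 77822781 to 77845917, minus strand) encodes the liver subunit of phosphofructokinase, which commits hexose phosphate to glycolysis. Its level was 15.6, 13.0 and 11.4 CPM in the KPF livers against 15.9, 17.2 and 15.8 CPM in the WPF livers. The groups did not overlap, but KPF replicate 1 nearly reached the WPF livers, and the log2 fold change was -0.29 (95% interval -0.77 to 0.18, unadjusted p = 0.193 from edgeR). *Pfkfb1* (chromosome X from 149371225 to 149426874, plus strand) encodes the bifunctional liver enzyme that makes and removes the sugar phosphate activating phosphofructokinase. Its level was 54.0, 52.5 and 53.9 CPM in the KPF livers against 35.1, 50.1 and 53.9 CPM in the WPF livers, with a log2 fold change of 0.21 (95% interval -0.31 to 0.72). Its groups overlapped, and the spread lay within WPF, where replicate 2 was the low one. It overlaps *Apex2* on the opposite strand, a gene with 70 to 197 reads per library.

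The middle of the pathway differed little. *Tpi1* (chromosome 6 from 124787549 to 124791259, minus strand) encodes triose phosphate isomerase, which joins the products of hexose and fructose breakdown. Its level was 76.0, 80.5 and 68.4 CPM in the KPF livers against 99.4, 79.3 and 88.6 CPM in the WPF livers, with overlap between the groups and a log2 fold change of -0.25 (95% interval -0.74 to 0.24). It overlaps *Spsb2* on the opposite strand, a gene with 151 to 258 reads per library. *Pgk1* (chromosome X from 105230706 to 105247305, plus strand) encodes phosphoglycerate kinase, the first step that yields ATP. Its level was 20.1, 15.5 and 15.2 CPM in the KPF livers against 19.4, 11.7 and 17.4 CPM in the WPF livers, with a log2 fold change of 0.07 (95% interval -0.52 to 0.66). *Pgam1* (chromosome 19 from 41900362 to 41907099, plus strand) encodes phosphoglycerate mutase and was the least abundant by reads, with 43 to 90 per library. Its level was 4.63, 3.85 and 5.94 CPM in the KPF livers against 5.43, 3.92 and 5.34 CPM in the WPF livers, with a log2 fold change of -0.03 (95% interval -0.74 to 0.69). None of these 3 intervals reaches the log2 fold change of *Pklr*, and each leaves room for a difference in either direction. The signs of *Pgk1* and *Pgam1* turned with the scaling or with the library left out. Near-identical copies share 67.0% of the 100-base stretches of *Pgk1* and 39.7% of those of *Pgam1*, against 0.796% for *Tpi1*.

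Without overlap between the groups in CPM, 4 of the 9 genes were lower in KPF (*Pklr*, *Eno1*, *Gckr* and *Pfkl*) and none was higher. Over all genes tested, 8.15% were lower and 7.55% higher without overlap in CPM. In FPKM the groups of *Pfkl* overlapped, with 2.27 in KPF replicate 1 and 2.10 in WPF replicate 2. Those of *Tpi1* did not, with at most 28.7 FPKM in KPF and at least 30.8 FPKM in WPF. By sign alone 7 of the 9 genes were lower, against 48.6% of all genes tested. Among 17 other tested genes of glycolysis, lactate and glucose transport, described below, 4 were lower and 13 higher by sign. Their median log2 fold change was 0.42, so the lower signs of the 9 genes do not extend to that list.

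The levels of the enzymes were compared per length, as FPKM (the counts divided by exonic length and by library total). *Gckr* was the highest in both groups, at 80.3 ± 11.1 FPKM in KPF and 159 ± 35.2 FPKM in WPF (SD, n = 3). In WPF it was followed by *Gpi1* (72.8 ± 45.4 FPKM), *Tpi1* (33.3 ± 3.56), *Pklr* (31.9 ± 20.1), *Pfkfb1* (12.2 ± 4.07), *Eno1* (10.9 ± 2.27), *Pgk1* (7.40 ± 1.73), *Pgam1* (2.55 ± 0.52) and *Pfkl* (2.54 ± 0.38). From *Gpi1* down to *Eno1* each gene overlapped the next in its WPF values. In KPF *Pklr* stood at 4.11 ± 1.32 FPKM, below *Pgk1* (7.15 ± 1.37) and *Eno1* (5.24 ± 1.36) and overlapping *Eno1*, and *Tpi1* (25.8 ± 3.40) stood beside *Gpi1* (23.5 ± 8.25). By the group means *Pklr* was number 4 of the 9 genes in WPF and number 7 in KPF. In WPF replicate 4 alone, *Pklr* (8.93 FPKM) already lay below *Pfkfb1* (15.6), *Eno1* (9.31) and *Pgk1* (9.01), and was number 7 there too. By the same means *Pgam1* and *Pfkl* were the lowest in both groups. The FPKM use the exonic length that the deposited table gives for each gene. This was 5379 bases for *Eno1*, whose longest coding transcript has 2027, and 3236 for *Pklr*, whose longest has 2902. Stretches shared with other genes also differed, from 67.0% in *Pgk1*, 59.0% in *Eno1* and 39.7% in *Pgam1* to 0.0% in *Gckr* and *Pfkl*. The part of lengths and shared stretches in this order of the genes was not tested.

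Pyruvate kinase, enolase and phosphofructokinase have isoenzymes made from other genes in other cells, and the share of *Pklr*, *Eno1* and *Pfkl* in these 3 families was computed from FPKM. *Pklr* made up 39.0%, 28.4% and 65.4% of the *Pklr* and *Pkm* FPKM in KPF and 92.0%, 92.4% and 75.0% in WPF, without overlap (mean difference -42.2 percentage points, exact two-sided permutation test, p = 0.1). *Pkm* encodes the pyruvate kinase of muscle and other tissues, and was at 5.29, 14.2 and 1.75 FPKM in KPF and 3.57, 3.78 and 2.98 FPKM in WPF. *Eno1* made up 23.1%, 5.11% and 30.3% of the enolases in KPF and 39.6%, 40.0% and 36.3% in WPF, again without overlap (mean difference -19.1 percentage points, exact two-sided permutation test, p = 0.1). The size of this share depends on the deposited exonic lengths, 5379 bases for *Eno1* and 1739 for *Eno3*. In WPF *Eno1* stood at 60.3, 67.8 and 43.1 CPM, above *Eno3* at 29.6, 32.8 and 24.3 CPM. With shares of CPM the mean difference was -26.3 percentage points. *Pfkl* made up 64.9%, 11.3% and 45.1% of the phosphofructokinases in KPF and 47.6%, 48.2% and 42.0% in WPF, with overlap (exact two-sided permutation test, p = 0.8). The lowest share in all 3 families was that of KPF replicate 2, the liver with muscle RNA. There the muscle forms *Eno3* and *Pfkm* reached 104 and 14.8 FPKM, against 8.50 to 20.8 and 0.81 to 3.61 in the other 5 libraries. Without that library the differences were -34.3 percentage points for *Pklr*, -11.9 for *Eno1* and 9.05 for *Pfkl*, so that the share of *Pfkl* turned its direction.

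**Figure D4:**
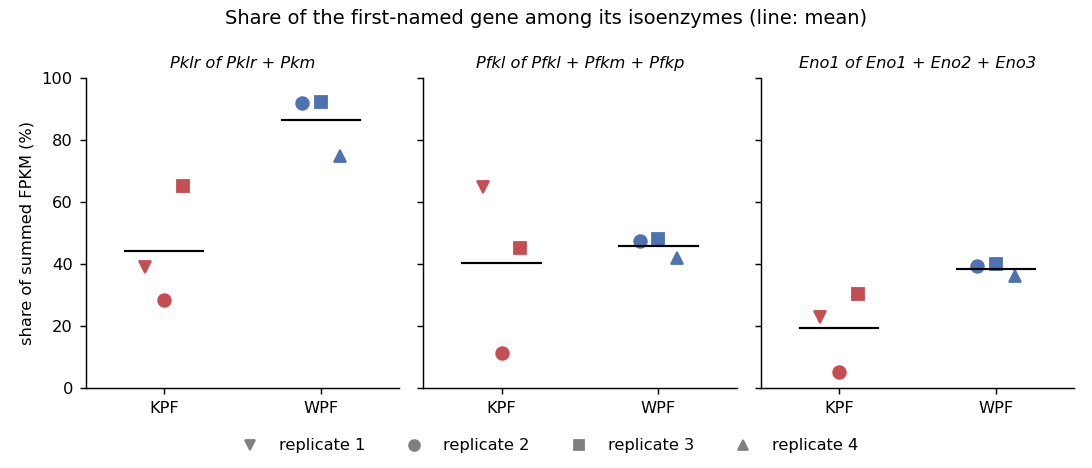
Share of *Pklr*, *Pfkl* and *Eno1* in the summed FPKM of its isoenzymes (vertical axis, percent) in each library, with lines for the group means. KPF replicate 2, which carries muscle RNA, has the lowest share in each panel, and the *Pklr* and *Eno1* shares of KPF lie below those of WPF in every library.

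Beside the 9 genes, a list of 26 other genes of glycolysis, lactate and glucose transport was written, of which 17 were tested. By the call rule 1 was lower and 2 were higher in KPF, beside the 3.98% and 5.83% of all genes. The lower one was *Slc2a2*, the glucose and fructose transporter of the hepatocyte surface, at 22.9, 59.7 and 25.8 CPM in KPF and 120, 128 and 82.7 CPM in WPF. Its log2 fold change was -1.61 (standard error 0.41, unadjusted p = 0.00487, adjusted p = 0.430 from edgeR), and its groups did not overlap. The higher ones were *Pgam2*, the mutase of muscle, and *Ldhb*, the lactate dehydrogenase of heart and oxidative muscle. *Pgam2* was at 203 CPM in KPF replicate 2 and at 0.43 CPM or less in the other 5 libraries. *Ldhb* was at 42.0 CPM in KPF replicate 2, at 2.03 and 1.46 CPM in the other KPF libraries and at 0.64 to 0.83 CPM in WPF. Without KPF replicate 2 neither *Pgam2* nor *Ldhb* reached the mean FPKM needed for a test.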

How the data were processed

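Liver RNA of 3 KPF and 3 WPF dams was sequenced as poly(A)-selected libraries. Per the submitters' processing notes, cutadapt 1.9.1, HISAT2 2.2.1, HTSeq 0.6.1 and DESeq2 were used on GRCm39; annotation release and strand setting are not given in the sources used here. The table deposited by the authors holds unnormalized counts for each gene beside FPKM, which equal count over exonic length and library total in 100% of entries (within 0.0051). No GRCm39 coordinate was combined with the GRCm38 sequences. Symbols matched 52073 of 56691 gene IDs.

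Genes whose FPKM averaged 1 or more were tested by edgeR 4.0.16 (TMM, quasi-likelihood, Benjamini-Hochberg), in R 4.3.3, after checks on simulated counts; alternatives used limma 3.58.1, DESeq2 1.42.0, other filters, left-out libraries and a replicate block. The 9 genes and all lists were chosen with earlier results of these data known. Genes were named by a rule: the 9 genes, *Mlxipl*, isoenzymes, called list members and the 5 nearest to *Pklr*. *Fam124a*, *A430005L14Rik* and *Gm1840* were named after their values were seen. The aldolase share and a red cell marker planned with the others are not reported here. Replicate numbers do not stand for shared animals. The p-values set the difference between the groups against the spread between these dams. Isoenzyme shares were tested by exact permutation.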

Additional observations from a re-analysis of the deposited data

How the results depend on the processing

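Under all 16 alternatives *Pklr*, *Gpi1*, *Eno1* and *Gckr* were lower in KPF, and none of the 9 genes was called higher. Both limma fits called 3 of the 9 genes lower by the call rule, without *Gpi1*. At an adjusted p under 0.05 DESeq2 called 156 genes, no filter on low values 286 and the fit without KPF replicate 2 and WPF replicate 4 (chosen after seeing the data) 33, each with 1 of the 9 genes, *Pklr*. With 1 library left out such calls ranged from 0 to 5 genes and from 0 to 1 of the 9, and the 9 genes called lower by the call rule from 2 to 4 (2 without KPF replicate 1, WPF replicate 2 or WPF replicate 3).

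By the call rule, higher and lower genes numbered 371 and 716 with library totals, 288 and 700 with limma on log2(FPKM + 0.1), 255 and 205 at a mean FPKM of at least 5, and 1576 and 910 with no filter, and 237 were higher with limma on log2(FPKM + 1). With 1 library left out they ranged from 331 (without WPF replicate 3) to 922 (without KPF replicate 3) and from 245 to 712. Library totals moved the median log2 fold change of all genes from 0.02 to -0.12. Of the other genes of the pathway and its reverse, none (0) was higher with either limma fit, against 3 in the main result, and 7 were higher and 4 lower with no filter. With 1 library, or KPF replicate 2 and WPF replicate 4, left out, 1 to 6 were higher and 2 to 5 lower.

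Some log2 fold changes turned their sign. *Pgk1* was at -0.048 with library totals, -0.038 and -0.035 with limma (0.1 and 1 added) and -0.00071 with no filter, and ran from -0.12 to 0.22 with 1 library left out. *Pgam1* ran from -0.21 to 0.17 with libraries left out, *Pkm* from -0.037 to 1.56, *Eno3* from -0.21 to 1.93 and *Pfkm* from -0.98 to 1.69. The *Pfkl* share ran from -17.7 to 9.05 percentage points. The cause was not tested.

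The replicate block pairs only numbers 2 and 3, shared by different dams whose deviations correlated at 0.07 and -0.05. KPF replicate 1 and WPF replicate 4 have no partner in it and add nothing to its group difference. With the block *Pklr* was at -3.27, *Gpi1* at -2.19, *Eno1* at -1.28 and *Gckr* at -1.04, with the same 4 genes called, *Pgam1* turned to 0.058, and 5 other genes of the pathway and its reverse, counted together, were called lower against 2. *Pgam1*, with 43 to 90 reads per library, is the gene most limited by depth.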

Other observations

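Of 8 listed symbols for the steps by which the liver runs the pathway backwards to glucose, 7 matched a gene and 6 were tested. Of these, 1 was called lower and 1 higher in KPF, beside 3.98% lower and 5.83% higher of all genes tested. *Pcx*, which makes oxaloacetate from pyruvate, stood at 88.3, 118 and 70.2 CPM in the KPF livers against 200, 186 and 134 CPM in the WPF livers, a log2 fold change of -0.91 (standard error 0.29, unadjusted p = 0.0145, adjusted p = 0.430 from edgeR) without overlap of the groups. Without WPF replicate 2 the unadjusted p from edgeR was 0.0542. *Pck1*, which makes phosphoenolpyruvate from oxaloacetate, stood at 270, 1744 and 326 CPM in the KPF livers against 201, 131 and 318 CPM in the WPF livers. Its log2 fold change was 1.85, and 0.46 (unadjusted p = 0.277) without KPF replicate 2, the library with muscle RNA.

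Of the marker lists, none of the 7 hepatocyte genes was called, and neither was any of the 5 tested red cell genes or the 6 Kupffer cell genes. All 6 skeletal muscle genes were called higher in KPF, beside 5.83% of all genes tested, with the level of KPF replicate 2 given above. KPF replicates 1 and 3 were not higher, with a summed FPKM of 5.93 and 4.62 against 7.79, 7.03 and 4.61 in WPF replicates 2, 3 and 4. Of 4 adipose genes 1 was tested and called higher, and their summed FPKM was 5.08, 22.1 and 1.68 in KPF replicates 1, 2 and 3 and 0.00, 0.39 and 0.01 in WPF replicates 2, 3 and 4, without overlap. The gene was *Cfd*, a protease secreted by fat cells, with 4.25, 17.5 and 1.27 CPM in the KPF libraries and 0.00, 0.14 and 0.00 CPM in those of WPF (edgeR unadjusted p = 0.00100, adjusted p = 0.415). Of the 10 stellate and endothelial genes, 5 were called higher in KPF, beside the same 5.83%, with a summed FPKM of 23.2 to 48.5 in KPF and 16.1 to 25.4 in WPF. The part of these lists in the lower levels of *Pklr*, *Gpi1*, *Eno1* and *Gckr* was not tested.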
